A study of Mus musculus with 5 samples.

Results

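The 10 imprinted genes H19, Igf2, Igf2r, Meg3, Dlk1, Peg3, Mest, Plagl1, Grb10 and Ndn were followed in mouse embryonic fibroblasts (MEFs) during 14 days in a chemically defined induction medium that the study uses to turn fibroblasts into neuron-like cells stained by TuJ1, an antibody to the Tubb3 protein. They are 10 of the 27729 genes in the deposited files and of the 13346 genes that reached 10 expected counts somewhere in the series. The set was built around H19, because H19 held more counts than any other gene in the day 5 library, and the level of H19 is therefore given as a description. Total RNA was sequenced in 5 libraries, 1 library for each of days 0, 2, 5, 10 and 14, so no difference between days has a replicate check and no p-value is given. All 5 libraries came from MEFs of ICR mice with no transgene or added gene, made from midgestation embryos without head and organs and enriched for strongly attached cells. The day 0 cells were in serum medium, and the later cells were in 5C medium, a serum-free mix built on DMEM/F12 with N2 supplement, to which vitamin C, 2-mercaptoethanol, leukemia inhibitory factor and bFGF are added. The labels call this medium 6C, and the treatment text beside them names a later last day than the day 14 of the last library. The expected counts, RSEM's estimates of the reads from each gene, gave library totals from 2253748 (day 2) to 3890334 (day 0). Below, a run of 5 values follows the 5 libraries in time order, and a run of 4 values follows the 4 later days.

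Imprinted genes are transcribed mainly from the copy inherited from 1 parent, a choice kept by DNA methylation that differs between the parental copies. Many of them set growth before birth: Igf2 is a growth factor of the embryo, Igf2r binds it and removes it, and Grb10 dampens signals from the insulin and IGF receptors. H19 and Meg3 are long non-coding RNAs expressed from the maternal copy, beside the paternally expressed genes Igf2 and Dlk1 on the same chromosomes. Most of these genes are high in embryonic mesenchyme and fall after birth. The libraries cannot tell the parental copies apart, so the values below are sums over both.

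The members lie in 8 places of the genome (GRCm38, GENCODE M21). H19 is on chromosome 7 at 142575529 to 142578143 on the minus strand, and Igf2 is on the same strand at 142650766 to 142666816, with 72622 bases between them. Peg3 (6703892 to 6730431, minus strand) and Ndn (62346569 to 62350262, plus strand) are elsewhere on chromosome 7. Dlk1 (109452823 to 109463336) and Meg3 (109541001 to 109571726) are on the plus strand of chromosome 12, with 77664 bases between them. Igf2r is on chromosome 17 at 12682406 to 12769664 and Grb10 on chromosome 11 at 11930508 to 12038683, both on the minus strand. Mest is on chromosome 6 at 30723547 to 30748465 and Plagl1 on chromosome 10 at 13060504 to 13131694, both on the plus strand. H19 and Meg3 are annotated as long intergenic non-coding RNAs and the other 8 as protein-coding genes.

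H19 and Mest, the member with the most counts and the member with the largest change, are among the members that host microRNAs. These small RNAs pair with messenger RNAs through the seed at bases 2 to 8. Igf2 (miR-483) and Meg3 (miR-770 and miR-1906) are hosts as well, and their microRNAs are not shown. The miR-675 hairpin lies in an exon of H19, and the miR-335 hairpin lies in an intron of Mest. Their mature sequences from RefSeq (GRCm38.p6) are shown 5′ to 3′ with the seed in capitals, because these are the products that the host transcripts can give.
mmu-miR-675-5p: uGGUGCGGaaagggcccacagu
mmu-miR-675-3p: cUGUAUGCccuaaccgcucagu
mmu-miR-335-5p: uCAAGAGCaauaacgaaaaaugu
mmu-miR-335-3p: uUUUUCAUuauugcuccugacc
No seed is shared among these 4 microRNAs. The counts used here are of host genes, and mature microRNAs were not measured.

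RefSeq (GRCm38.p6) gave 16 start-site windows for 9 of the 10 members, all but H19. Each runs from 250 bases before to 50 bases after a start. CpG, the dinucleotide that carries DNA methylation, occurred a median of 13 times in the 16 windows. In all 32851 windows of the same length the median was 7 times, and 13 of the 16 lay above it. The Mest windows that start at 30737800 and 30737803 overlap almost fully, and both are counted. The GC-rich palindrome GGGGCCCC, searched as the core of the Plagl1 binding element, was found in 1 of the 16 windows, that of Peg3 at chr7:6730370-6730669, and in 1.08% of all windows. The windows of Mest and Grb10, the members highest and lowest against day 0 on day 14, are shown with each CpG in capitals, 1 of the 3 windows of Mest and 1 of the 2 of Grb10. The Mest window shown, at chr6:30737800-30738099 (plus strand), holds 17 CpGs, where the others hold 17 and 8, and the Grb10 window shown, at chr11:12037371-12037670 (minus strand), holds 45, where the other holds 9.
Mest: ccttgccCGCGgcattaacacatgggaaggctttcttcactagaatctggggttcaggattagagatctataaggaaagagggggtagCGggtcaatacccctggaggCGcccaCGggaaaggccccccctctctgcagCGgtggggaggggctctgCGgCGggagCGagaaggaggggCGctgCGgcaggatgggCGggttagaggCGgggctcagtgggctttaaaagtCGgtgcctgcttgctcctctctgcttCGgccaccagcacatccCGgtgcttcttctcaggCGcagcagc
Grb10: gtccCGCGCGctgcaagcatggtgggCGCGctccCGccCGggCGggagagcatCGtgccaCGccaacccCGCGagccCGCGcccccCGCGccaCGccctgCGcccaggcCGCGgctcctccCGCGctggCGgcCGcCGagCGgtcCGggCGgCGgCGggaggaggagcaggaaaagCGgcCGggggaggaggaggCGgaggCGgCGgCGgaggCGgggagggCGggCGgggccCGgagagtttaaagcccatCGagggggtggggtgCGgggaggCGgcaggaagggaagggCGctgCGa
These letters describe the start sites, and methylation was not measured in these libraries.

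The share of all counts taken by H19 was 0.399% (95% Clopper-Pearson interval 0.393 to 0.405%), 0.615% (0.605 to 0.625%), 1.77% (1.76 to 1.78%), 0.885% (0.876 to 0.894%) and 0.982% (0.971 to 0.992%) over the 5 libraries. It was the gene with the 17th most counts on day 0, the 12th on day 2, the 1st on day 5 and the 2nd on days 10 and 14. On day 5 it held 60057 expected counts, and Spp1, the next gene, held 47732. These intervals, and all others below, cover counting error only, since reads without molecular identifiers are not independent molecules. The 10 members together took 1.00, 1.02, 2.78, 1.78 and 1.68% of the counts over the 5 libraries. H19 therefore made up most of the members' counts on day 5.

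Normalized counts, which are expected counts divided by TMM library sizes and scaled to a common library size, put H19 at 15353, 25061, 52552, 24551 and 29503 over the 5 libraries. All 4 later libraries were above day 0, and the day 5 library was the highest. The log2 change against day 0 was 0.71, 1.78 (95% counting interval 1.75 to 1.80), 0.68 and 0.94 (0.91 to 0.97), so H19 was over 2-fold above day 0 on day 5 and not on the other days. In TPM, or with total counts as library sizes, it was over 2-fold above day 0 on days 10 and 14 as well, at 1.43 and 1.40 in TPM and 1.15 and 1.30 with total counts. It was 1.07 on the log2 scale above day 2 on day 5, and 1.10 below day 5 on day 10 (log2 change -1.10, interval -1.12 to -1.08). These changes share 1 day 0 library. In a bulk sample fewer cells of a type and less RNA per cell cannot be told apart, and this holds for every value here.

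**Figure D1:**
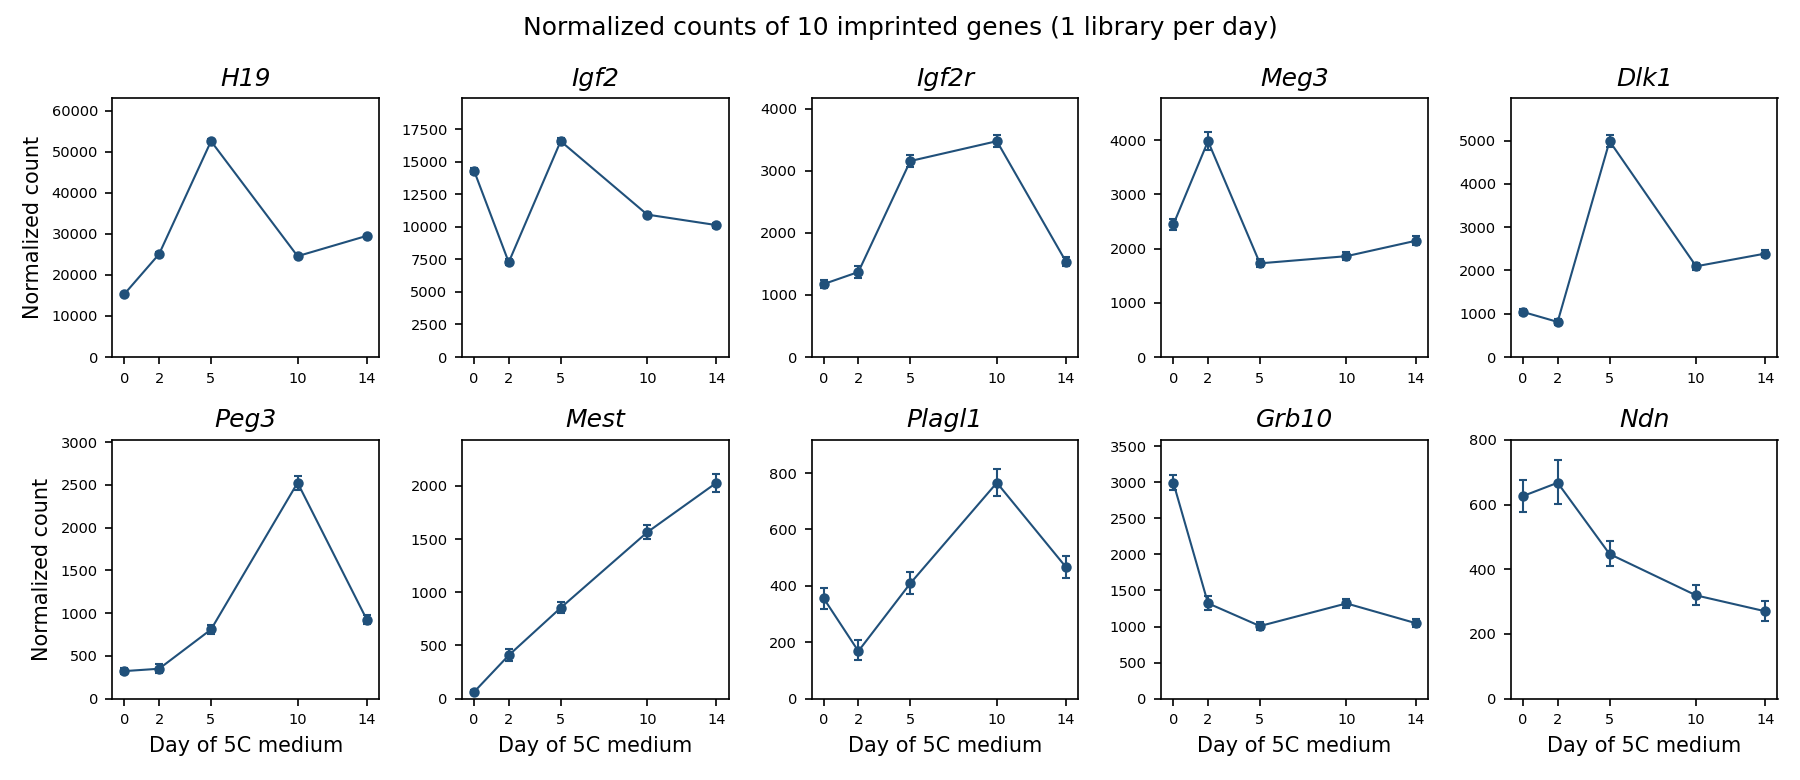
Normalized counts (y axis, linear and from 0, a scale of its own in each panel) of the 10 imprinted genes against the day of 5C medium (x axis). Each point is the 1 library of that day and the bars are 95% Poisson counting intervals. H19, Igf2 and Dlk1 are highest on day 5, Igf2r, Peg3 and Plagl1 on day 10, Mest on day 14, Meg3 and Ndn on day 2 and Grb10 on day 0.

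Meg3, the other long non-coding RNA, did not share the course of H19. Its normalized counts were 2444, 3980, 1727, 1859 and 2143 over the 5 libraries. It was highest on day 2 and lowest on day 5, when H19 and Dlk1 were highest. Against day 0 its log2 change was 0.70 (0.62 to 0.79), -0.50, -0.39 and -0.19, all within 2-fold, and in TPM the signs on days 5, 10 and 14 were positive, at 0.16, 0.14 and 0.49. The step from day 2 to day 5 was a log2 change of -1.20 (-1.29 to -1.12), and Meg3 was the 1 member over 2-fold lower in that step. In TPM the step was -0.45, and Meg3 was lowest on day 0, at 969 TPM against 1080 TPM on day 5.

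Dlk1, a transmembrane protein of the Notch ligand family that holds back fat cell formation, had normalized counts of 1041, 810.5, 4985, 2095 and 2389 over the 5 libraries. The first 2 libraries were low, day 5 stood far above the rest, and days 10 and 14 lay between. Its log2 change against day 0 was -0.36, 2.26 (2.16 to 2.36), 1.01 (0.91 to 1.11) and 1.20 (1.10 to 1.30). The step from day 2 to day 5, a log2 change of 2.62 (2.48 to 2.76), was the largest of any member between those days. The day 10 interval holds the 2-fold line. Summed normalized counts of 6 adipocyte markers, with Pparg, Adipoq and Fabp4 among them, were 218, 399, 993, 3219 and 4592. On day 14, 24.5% of all genes tested and 5 of the 6 markers were over 2-fold above day 0. In TPM it was 41.6% of all genes and 6 of the 6 markers. Their part in the result was not tested.

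Igf2, the growth factor beside H19, had normalized counts of 14293, 7273, 16569, 10932 and 10125 over the 5 libraries. Day 2 was the lowest library and day 5 the highest. Against day 0 its log2 change was -0.97 (-1.03 to -0.92), 0.21 (0.18 to 0.24), -0.39 and -0.50. Igf2 thus stayed within 2-fold of day 0 throughout in normalized counts, though the day 2 interval holds the 2-fold line. On day 2 it was over 2-fold below day 0 in TPM, at -1.21, and with total counts as library sizes, at -1.06. The transcript Igf2os, which shares 98 exon bases with Igf2 on the opposite strand, held between 13 and 69.7 expected counts, and the kit named in the labels does not mark strand, so reads of the 2 genes there cannot be told apart.

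Igf2r, the receptor that carries Igf2 to lysosomes, had normalized counts of 1175, 1369, 3157, 3477 and 1532 over the 5 libraries. Days 5 and 10 stood above the other 3 libraries. Relative to day 0 the log2 change was 0.22, 1.42 (1.33 to 1.52), 1.56 (1.47 to 1.66) and 0.38. Its log2 change in the last step, days 10 to 14, was -1.18 (-1.26 to -1.10). Airn, the long antisense RNA of the Igf2r cluster, had normalized counts of 17.8, 21.5, 62.3, 89.3 and 30.2 and was also highest on day 10.

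Grb10, the adaptor that restrains insulin and IGF receptors, was highest before the change of medium. Its normalized counts were 2995, 1322, 1006, 1320 and 1047 over the 5 libraries, and all 4 later libraries were over 2-fold below day 0 on this scale. The log2 change was -1.18 (-1.30 to -1.06), -1.57 (-1.67 to -1.48), -1.18 (-1.27 to -1.10) and -1.52 (-1.61 to -1.42). In TPM as deposited it was -1.41, -0.86, -0.07 and -0.65, so Grb10 was over 2-fold below day 0 on day 2 alone on that scale. In normalized counts it was the 1 member over 2-fold below day 0 on every later day.

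Mest, a paternally expressed gene that encodes a protein of the hydrolase fold, had the largest change of the members. Its normalized counts were 62.6, 407, 853, 1564 and 2030 over the 5 libraries, higher in each later library than in the one before it. With a pseudocount of 1, the normalized count was 6.41, 13.4, 24.6 and 31.9 times that of day 0 over the 4 later days, and the log2 change on day 14 was 5.00 (4.66 to 5.41). Counts were lowest on day 0, with 63.3 expected counts, and this sets the width of the interval. Copg2, which shares 912 exon bases with Mest on the opposite strand, had normalized counts of 162 on day 0 and 256 on day 14.

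Peg3 and Plagl1 encode zinc finger proteins, and both were highest on day 10. Peg3 had normalized counts of 322, 349, 809, 2525 and 923 over the 5 libraries. Its log2 change against day 0 was 0.12, 1.33, 2.97 (2.81 to 3.14) and 1.52 (1.34 to 1.70). Peg3 was the 1 member over 2-fold higher on day 10 than on day 5, with a log2 change of 1.64, and it dropped by 1.45 on the log2 scale over the last step, days 10 to 14. Plagl1, a transcription factor known to act on other imprinted genes, had normalized counts of 355, 168, 409, 766 and 466 over the 5 libraries. Its log2 change was -1.07 (-1.42 to -0.75), 0.20, 1.11 (0.93 to 1.28) and 0.39. The intervals on days 2 and 10 hold the 2-fold line. Zim1, an imprinted neighbour of Peg3, was also highest on day 10, with normalized counts of 5.94, 3.62, 11.4, 176 and 17.9, and Zim1 was named after its values were seen.

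Ndn encodes necdin, a MAGE family protein found at a high level in neurons that have left the cell cycle. Its normalized counts were 626, 668, 447, 319 and 270 over the 5 libraries. The first 2 libraries were the highest and day 14 the lowest. Its log2 change against day 0 was 0.09, -0.49, -0.97 (-1.15 to -0.80) and -1.21 (-1.42 to -1.01), and in TPM it was -0.17, 0.22, 0.19 and -0.34, with the sign reversed on days 2, 5 and 10. The medium is used to make neuron-like cells, and 6 neuron markers summed to normalized counts of 667, 354, 240, 257 and 376. Of the 4 with 10 or more counts, Tubb3 (22.2, 39.8, 91.8, 84.2 and 161 normalized counts) and Snap25 (0, 0, 19.2, 8.54 and 6.27) were over 2-fold above day 0 on days 5, 10 and 14. Map2 and Stmn2 were over 2-fold below on those days. Of all genes tested, 20.2, 28.7 and 24.5% were above and 13.6, 22.3 and 19.9% below on these days in normalized counts. In TPM Tubb3 and Snap25 were above on the same days, while Stmn2 alone was below on days 5 and 10 and Map2 alone on day 14. Rbfox3 was at 0 in every library and Syt1 was under 10 counts in each. Their part in the result was not tested.

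**Figure D2:**
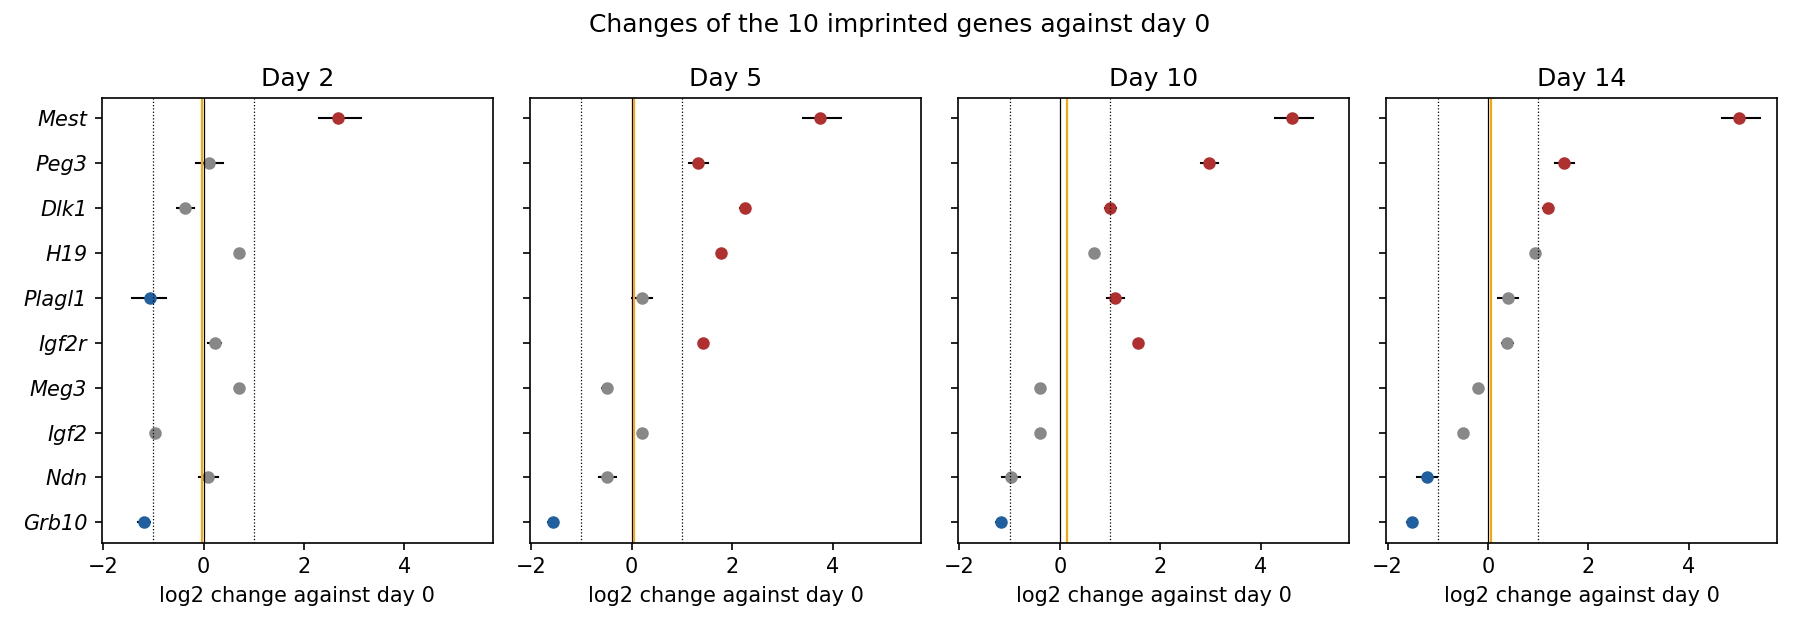
Changes of the 10 imprinted genes against day 0 (x axis, log2 of normalized counts with a pseudocount of 1, 1 panel per day), ordered by their change on day 14. Bars are 95% counting intervals, dotted lines mark 2-fold, the orange line is the median of all 13346 genes tested, and red and blue points lie over 2-fold above and below day 0. On the authors' TPM scale the point of Ndn changes sign on days 2, 5 and 10, that of Meg3 on days 5, 10 and 14, and those of Igf2r and Peg3 on day 2.

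Over 2-fold differences against day 0 were counted next. On day 2, 1 member was above (Mest) and 2 were below (Plagl1 and Grb10), where 15.2% of all genes tested were above and 13.1% below. On day 5, 5 members were above (H19, Igf2r, Dlk1, Peg3 and Mest) and 1 was below (Grb10), beside 20.2% and 13.6% of all genes. That day chose H19, so nothing is read from its count. On day 10, 5 were above (Igf2r, Dlk1, Peg3, Mest and Plagl1) and 1 below (Grb10), beside 28.7% and 22.3%. On day 14, 3 were above (Dlk1, Peg3 and Mest) and 2 below (Grb10 and Ndn), beside 24.5% and 19.9%, so the members' shares on that day were near those of all genes. The median log2 change of the members was 0.10, 0.77, 0.84 and 0.39 on days 2, 5, 10 and 14, against -0.03, 0.05, 0.14 and 0.07 over all genes. Without H19, which day 5 chose, the median of the other 9 on day 5 was 0.21.

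Among neighbouring days, the step from day 2 to day 5 held the most members past 2-fold. In that step 7 of 10 members were over 2-fold higher (H19, Igf2, Igf2r, Dlk1, Peg3, Mest and Plagl1) and 1 was lower (Meg3), beside 19% and 12.5% of all genes tested. Day 5 is the day that chose H19, and without it 6 of 9 members were higher. From day 5 to day 10, Peg3 was over 2-fold higher and H19 and Dlk1 were lower, beside 12.8% and 9.5% of all genes. From day 10 to day 14, 0 members were over 2-fold higher, and Igf2r and Peg3 were lower, beside 4.73% and 8.33%. The day 2 library, in which Gm42418, a gene that overlaps ribosomal RNA sequence, took 4.79% of the counts against 0.109% or less in the others, is on 1 side of the first of these steps. Without Gm42418 and Lars2 in the library sizes the log2 change of each member moved by less than its counting interval.

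Over 4-fold differences were fewer. Mest was over 4-fold above day 0 on all 4 later days, Dlk1 on day 5 and Peg3 on day 10, which makes 1, 2, 2 and 1 members over the 4 later days, beside 5.36, 8.7, 13.9 and 11.7% of all genes tested. No member was over 4-fold below day 0 on any day, beside 2.92, 2.78, 7.92 and 6.11% of all genes. On the deposited TPM scale, 1, 5, 6 and 6 members were over 2-fold above day 0, beside 7.9, 32, 52.9 and 41.6% of all genes, and 3, 0, 0 and 0 were below, beside 14, 3.98, 6.77 and 6.97%. H19, Igf2r, Dlk1, Peg3, Mest and Plagl1 were the 6 above on days 10 and 14, and Igf2, Plagl1 and Grb10 the 3 below on day 2. In the step from day 2 to day 5, the same 7 members as in normalized counts were over 2-fold higher in TPM and 0 were lower, beside 43.4% and 3.13% of all genes. In the step from day 5 to day 10, Peg3, Mest and Plagl1 were higher and 0 were lower, beside 21.2% and 3.21%.

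Grouped by the copy known to be expressed in most tissues, the 4 maternally expressed members (H19, Igf2r, Meg3 and Grb10) had a median log2 change of 0.46, 0.46, 0.14 and 0.10 on days 2, 5, 10 and 14. The 6 paternally expressed members (Igf2, Dlk1, Peg3, Mest, Plagl1 and Ndn) had medians of -0.13, 0.77, 1.06 and 0.79. On day 10, 4 of the 6 paternally expressed members and 1 of the 4 maternally expressed members were over 2-fold above day 0, beside 28.7% of all genes tested. Both groups held members over 2-fold below day 0 on day 14, Ndn in the paternal and Grb10 in the maternal group. In TPM both were within 2-fold, at -0.34 and -0.65. With the median of genes of like length taken away, as below, the maternally expressed members in the order above were at 0.96, 0.64, 0.76 and -2.11 on day 10. The paternally expressed members in the order above were then at -0.10, 2.16, 2.04, 4.46, 0.18 and -0.68. Members of a group are not replicates, and the difference between the groups was not tested.

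Scale and gene length both bear on these values. On the TPM scale, which divides by length and sets each library to the same total, the median log2 change of all genes was -0.20, 0.61, 1.09 and 0.78 on days 2, 5, 10 and 14. With that median taken away, the TPM log2 change of H19 was 1.08, 1.49, 0.34 and 0.61, that of Mest 2.54, 3.72, 4.58 and 4.95, and that of Grb10 -1.21, -1.47, -1.16 and -1.44. By the same measure Igf2 was at -1.01, -0.16, -1.27 and -1.03, so its sign on day 5 was opposite to that in normalized counts. Longer genes were higher on the later days: on day 10 the median log2 change of normalized counts was -1.15 in the shortest of 5 equal length groups, which holds Meg3 and Dlk1, and 0.92 in the longest group, which holds Igf2r, Peg3, Plagl1 and Grb10. With the median of its own length group taken away, the log2 change on day 10 was 2.04 for Peg3, 0.64 for Igf2r, 0.18 for Plagl1, -2.11 for Grb10, 2.16 for Dlk1 and 0.76 for Meg3. The excess of Dlk1 and the deficit of Grb10 against day 0 were thus larger beside genes of like length, Igf2r and Plagl1 were no longer over 2-fold above day 0, and Meg3 changed sign. The part of RNA quality in this was not tested.

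Levels of different genes were compared per length, in the deposited TPM. Igf2 was first among the members on day 0 at 3701 TPM, ahead of H19 at 3179 TPM. H19 was first in the other 4 libraries, at 5838, 13584, 8563 and 8365 TPM on days 2, 5, 10 and 14, and among all genes it was 45th, 20th, 4th, 3rd and 4th by TPM. The last member was Mest on day 0 at 8.64 TPM and Plagl1 on the other days, at 9.34, 44.7, 129 and 57.1 TPM. Mest went from 8.64 TPM on day 0 to 514 TPM on day 14. Neighbours whose counting intervals overlapped were Mest and Igf2r on days 2 and 5, Peg3 and Plagl1 on day 2, and Igf2r and Ndn on day 14. The gene length that RSEM weights by isoform was not constant for H19, at 1710, 1280, 2233, 2271 and 2282 bases. Nor was it for Igf2, at 1370, 1350, 1890, 2634 and 2104 bases. For Meg3 it was 906, 822, 933, 1385 and 1025 bases, and for Dlk1 1384, 1078, 1378, 1328 and 1412 bases. The TPM of these genes thus moves with the isoforms assigned as well as with the counts.

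Ratios within a library need no library size, and were taken between neighbours. The count of H19 was 1.07 times that of Igf2 (1.05 to 1.10), 3.45 times (3.33 to 3.57), 3.17 times, 2.25 times (2.20 to 2.29) and 2.91 times (2.85 to 2.98) over the 5 libraries. The ratio was thus near 1 before the change of medium and above 2 in all 4 later libraries. The count of Meg3 was 2.35 times that of Dlk1, 4.91 times (4.43 to 5.45), 0.346 times (0.329 to 0.365), 0.887 times and 0.897 times over the 5 libraries. Both count ratios were higher on day 2 than on day 0 and lower on the later days than on day 2. That of Meg3 to Dlk1 went below 1, and that of H19 to Igf2 did not. Per length, in TPM, the ratio of H19 to Igf2 was 0.859, 3.65, 2.68, 2.61 and 2.69, so it was below 1 on day 0. In TPM the ratio of Meg3 to Dlk1 was 3.63, 6.51, 0.516, 0.852 and 1.24 in the 5 libraries, so the side of 1 differed from that of the counts on day 14.

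Rian, Mirg and Rtl1 lie in the same cluster as Meg3 and Dlk1. Rian, a host of small nucleolar RNAs that is read from the same strand as Meg3, had normalized counts of 1104, 490, 1147, 964 and 889. It was lowest on day 2, the day on which Meg3 was highest, and the ratio of Meg3 to Rian counts was 2.21 on day 0, 8.12 on day 2 (7.15 to 9.24) and 1.51 on day 5. Mirg had normalized counts of 132, 175, 81.7, 45.0 and 64.4 over the 5 libraries, and on day 14 its log2 change of -1.02 became 0.19 in TPM. Rtl1 held 5.94 to 23.7 normalized counts. Copg2 beside Mest was at a log2 change of 0.66 on day 14 (0.37 to 0.94). The ratio of Mest to Copg2 counts went from 0.386 on day 0 (0.283 to 0.517) to 7.93 on day 14 (7.02 to 9.01). Reads in the exon bases that Mest and Copg2 share cannot be told apart by strand, and these intervals do not cover that. The ratio of Igf2r to Airn counts lay between 39.0 on day 10 and 66.1 on day 0, with counting intervals that all overlapped. Usp29 beside Peg3 and Magel2 beside Ndn had under 10 counts in every library, and Snrpn was not analysed here.

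**Figure D3:**
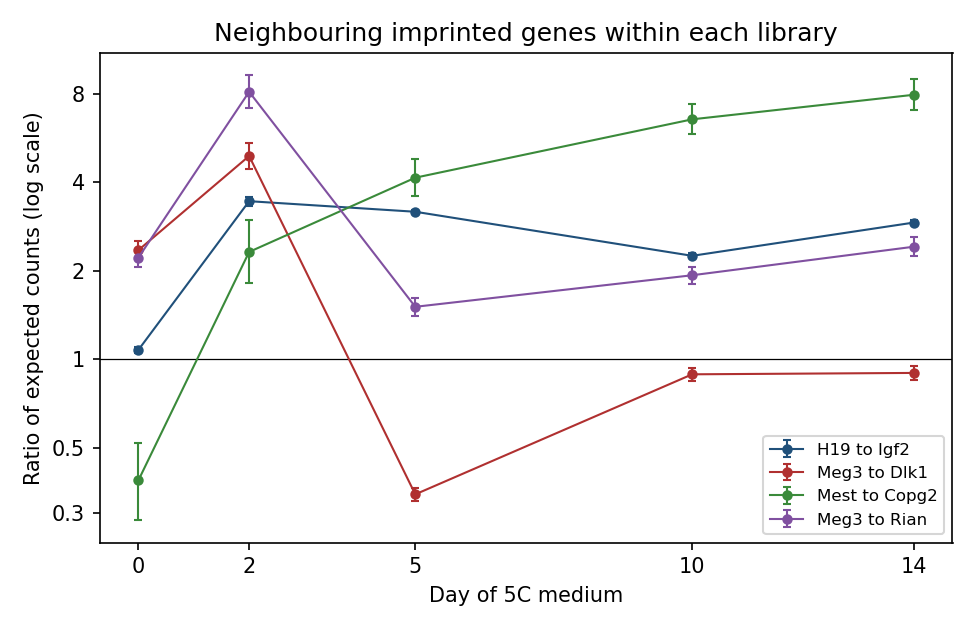
Ratio of expected counts (y axis, log scale) of neighbouring imprinted genes within each library against the day of 5C medium (x axis), with 95% Clopper-Pearson counting intervals and 1 library per day. The H19 to Igf2 ratio is above 2 from day 2 on, the Meg3 to Dlk1 ratio goes from 4.91 on day 2 to 0.346 on day 5, and the Mest to Copg2 ratio is higher in each later library.

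Outside the members, 59 of 65 listed imprinted genes had a value and 45 had 10 or more counts. Of these 45, 5 were over 2-fold above and 10 below day 0 on day 2, 5 and 7 on day 5, 11 and 11 on day 10, and 11 and 11 on day 14. The shares of all genes tested were 15.2, 20.2, 28.7 and 24.5% above and 13.1, 13.6, 22.3 and 19.9% below over the 4 later days, so those of the imprinted genes on day 14 were near them. The medians of these 45 genes were -0.41, 0.14, 0.22 and 0.12 on the log2 scale. The highest and lowest on day 14 were ranked only among those with 100 or more counts in any library. Highest of these against day 0 were Dcn, a collagen-binding proteoglycan, at a log2 change of 4.86 (4.59 to 5.17), Gab1, a docking protein of growth factor receptors, at 2.44 (2.08 to 2.86), and the phosphatase gene Inpp5f at 1.65 (1.27 to 2.08). Lowest of these were Slc38a4, an amino acid transporter, at -3.59 (-4.36 to -3.03), Tssc4 at -2.10 (-2.34 to -1.88) and the signal peptide peptidase gene H13 at -1.86 (-2.01 to -1.71). Cdkn1c, the imprinted inhibitor of cyclin-dependent kinases, had normalized counts of 390, 340, 509, 686 and 599. In TPM 19 of the 45 genes were over 2-fold above and 5 below day 0 on day 14, beside 41.6% and 6.97% of all genes on that scale.

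**Figure D4:**
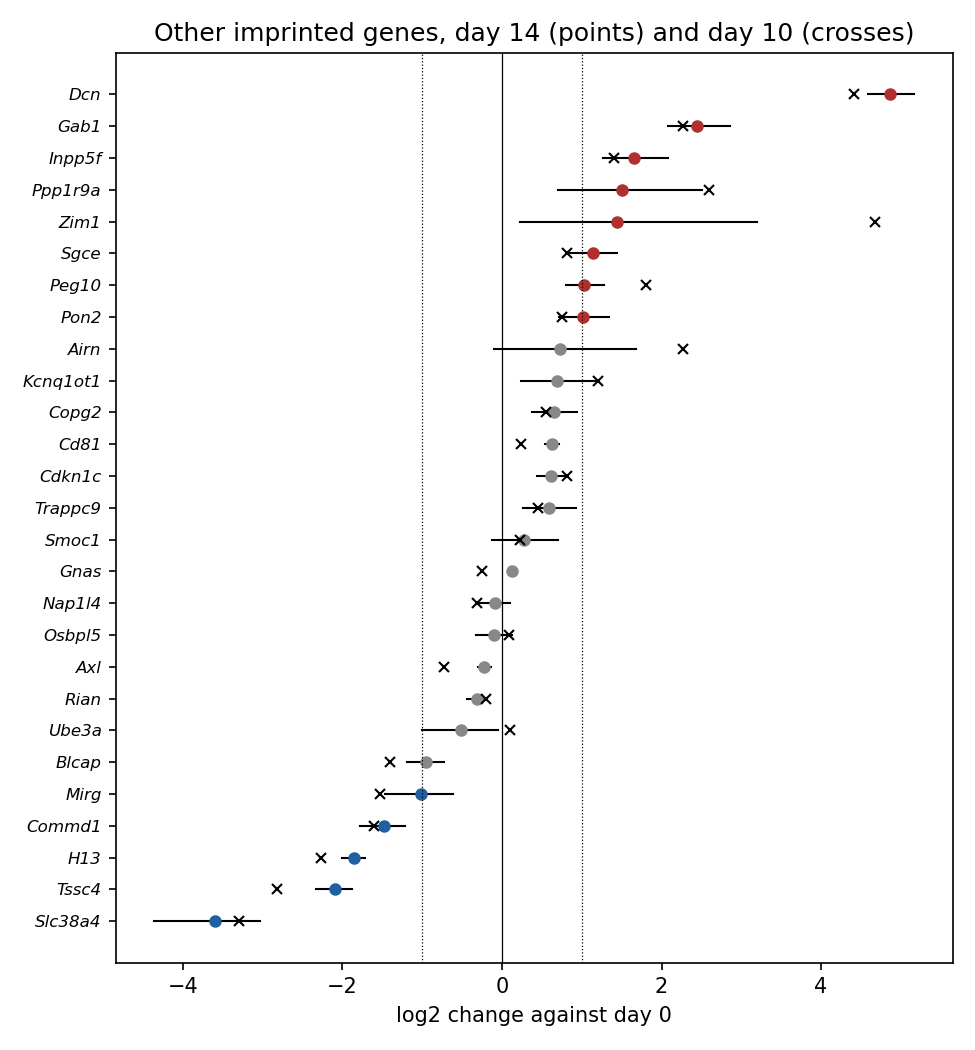
Changes against day 0 (x axis, log2 of normalized counts) of the 27 other imprinted genes with 100 or more counts in 1 or more libraries, on day 14 (points with 95% counting intervals, red and blue over 2-fold above and below) and on day 10 (crosses), with dotted lines at 2-fold. Dcn is highest at 4.86 and Slc38a4 lowest at -3.59 on day 14, Zim1 lies at 4.68 on day 10 and 1.44 on day 14, and on the TPM scale the points of Rian, Mirg, Ube3a, Nap1l4, Osbpl5 and Axl and the crosses of Rian, Nap1l4, Gnas and Axl change sign.

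Igf2, Igf2r and Grb10 belong to the insulin-like growth factor system, and its other genes were read by role. Among the ligands Igf1 had normalized counts of 20.8, 74.2, 124, 231 and 268, a log2 change of 3.63 on day 14 (3.05 to 4.40), while Ins2 was at 0 in every library, which allows up to 1.33 per 1000000 counts on day 2 and less in the others. Among the receptors Igf1r, through which Igf1 and Igf2 signal, was at a log2 change of -2.23 on day 14 (-2.82 to -1.74). Insr was at 1.21 (0.85 to 1.60). Of all genes tested, 24.5% were over 2-fold above and 19.9% below day 0 on day 14. Of 6 binding proteins with 10 or more counts, 3 were over 2-fold above day 0 on that day and 1 was below. Above were Igfbp3 at 3.01, Igfbp4 at 4.17 and Igfbp5 at 4.99, and below was Igfbp6 at -2.54. Of 5 adaptors, Irs2 was over 2-fold above at 2.44 (0.87 to 6.10, from 1.98 normalized counts on day 0), and Grb10 at -1.52 and Grb14 at -1.52 were below. Of the 3 mRNA binding proteins that bind Igf2 and other messages, Igf2bp1 was below at -2.43 (-2.99 to -1.97) and Igf2bp2 and Igf2bp3 were at -0.10 and 0.14. In normalized counts Igf1, Insr, Irs2, Igfbp3, Igfbp4 and Igfbp5 were thus over 2-fold above day 0 on day 14. Igf1r, Igfbp6, Grb10, Grb14 and Igf2bp1 were over 2-fold below. On the TPM scale Grb10 was within 2-fold on that day, at -0.65, and Igf2r was over 2-fold above, at 1.24.

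The courses of 8272 genes with 100 or more counts in 1 or more libraries were compared with that of H19 by the root mean square difference of log2 change over days 2, 5, 10 and 14. The 5 closest were Ccl2 at 0.15, Plau at 0.18, Sdc1 at 0.18, Naglu at 0.23 and Fez1 at 0.24. Ccl2, a chemokine, had log2 changes of 0.87, 1.85, 0.76 and 0.72 on these days, and Plau, the urokinase plasminogen activator, had 0.78, 1.93, 0.83 and 1.22. The member closest to H19 was Igf2r, at 0.60. These distances are over 4 days that share 1 day 0 library and 1 library a day.

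The labelled cell type was checked against its markers. Over the 4 later days 15.2, 20.2, 28.7 and 24.5% of all genes tested were over 2-fold above day 0. On day 14, 19.9% were below. In TPM the shares were 7.9, 32, 52.9 and 41.6% above, and 6.97% below on day 14. All 12 fibroblast markers had 10 or more counts, and their summed normalized counts were 64134, 60704, 55408, 71249 and 104821. On day 14, Col3a1, Pdgfra, Dcn and Lum were over 2-fold above day 0 and Thy1, S100a4, Twist2 and Prrx1 below. In TPM 7 of the 12 were above and 2 below, with Thy1 and Prrx1 within 2-fold. Summed counts of 7 Schwann cell markers were 79.9, 165, 881, 5159 and 6786, and 7 of 7 were over 2-fold above day 0 on day 14, in TPM as well. Summed counts of 8 macrophage markers were 107, 562, 923, 800 and 662. On days 2 and 5, 8 of 8 were over 2-fold above day 0, and on days 10 and 14, 6 of 8. In TPM it was 4, 7, 8 and 6 of the 8 over the 4 later days. Summed counts of 12 skeletal muscle markers went from 1227 to 47.5, with Myf5 at 0 in every library. The sum of 4 endothelial markers went from 239 to 7.15, of which Kdr held 236 normalized counts on day 0 and 3.58 on day 14, with the other 3 markers under 10 normalized counts in every library, and 4 epithelial markers summed to between 16.1 and 315, with Epcam and Cdh1 under 10 counts throughout. Dividing cell markers summed to 656, 854, 1306, 937 and 131, and 7 of 7 were over 2-fold below day 0 on day 14. In TPM 3 of the 7 were below on that day. The part of these cells in the members' changes was not tested.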

How the data were processed

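Total RNA of 5 libraries, 1 per time point, was sequenced after preparation with a TruSeq RNA kit. Per the labels' processing notes the authors used Bowtie, RSEM and mm10, and versions, annotation and filters are not given in the sources used here. The authors deposited expected counts per gene, RSEM's estimated and not always whole read numbers without scaling. The deposited TPM values are divided by gene length and set to 1000000 per library, and the deposited FPKM values, divided by length and counted reads, were not used. The deposited length of each gene is a mean over isoforms in that library.

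Symbols and coordinates came from GENCODE M21 for 27247 of 27729 genes. Expected counts were rounded for TMM library sizes (edgeR 4.0.16, R 4.3.3). Factors were 0.856, 0.808, 1.11, 1.19 and 1.10 from day 0 to day 14. Counts were divided by these effective sizes and brought to their geometric mean. Changes are log2 ratios with a pseudocount of 1, over genes with 10 or more counts in 1 or more libraries. Intervals are 95% Clopper-Pearson (levels in the plot of counts by day, and TPM, Poisson) on rounded counts without a pseudocount, and cover counting error only. A count of 3 is a share of 0.771 to 1.33 per 1000000 counts.

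With 1 library per group no test was run. The fold changes and intervals were tested on simulated counts with counting noise only. Library sizes there came from the unchanged genes, so the TMM step was not tested. The members and gene lists were chosen with earlier results of these data known. Genes outside the members were named as the 3 highest and 3 lowest on day 14 in each list among genes with 100 or more counts, as cluster partners, and as the 5 genes most like H19. Alternatives were DESeq2 (1.42.0) size factors, total counts, TPM, library sizes without Gm42418 and Lars2, pairwise TMM, a pseudocount of 5, other filters and a 4-fold threshold. Subtracting the all-gene median from TPM changes and the length-fifth median from normalized changes was added after seeing the data. Python 3.11.15, numpy 2.4.6, pandas 2.3.3, scipy 1.17.1 and matplotlib 3.10.9 were used.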

Additional observations from a re-analysis of the deposited data

How the results depend on the processing

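No paired analysis was possible because each time point has 1 library, and for the same reason no replicate could be left out. Filters on counts, a pseudocount of 5, library sizes without Gm42418 and Lars2, and levels as counts divided by length moved none of the counts, medians and H19 changes to which they were applied beyond the counting interval or 1.5 times. Depth limits values that rest on few counts, such as Mest on day 0 and Zfp445, Rtl1, Zim1, Irs2 and Airn. The cause of the shifts below was not tested.

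The H19 log2 change on days 2, 5, 10 and 14 became 0.62, 2.15, 1.15 and 1.30 with total counts as library sizes, 0.88, 2.10, 1.43 and 1.40 in TPM, and 1.08, 1.49, 0.34 and 0.61 in TPM less the all-gene median, so it was over 2-fold on 3 days with total counts and in TPM. On day 10 it was 0.62 with DESeq2 size factors and 0.62 with pairwise TMM. With the length-fifth median subtracted it was 1.83, 0.96 and 1.06 on days 5, 10 and 14. The members' median became -0.15, 1.41, 1.83 and 1.22 in TPM on days 2 to 14, 1.14, 1.32 and 0.74 with total counts on days 5, 10 and 14, 0.73 in TPM less the all-gene median on day 10, 0.63 and 0.70 with the length-fifth median subtracted on days 5 and 10, and 0.21 and 1.01 without H19 on days 5 and 10.

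Members over 2-fold above day 0 became 2 on day 2 in TPM less the all-gene median, 3 on day 10 with the length-fifth median subtracted, and 6 on day 14 in TPM. Members below became 1 on day 2 with the length-fifth median subtracted, 2 on day 10 with DESeq2 size factors, 2 with pairwise TMM and 2 in TPM less the all-gene median, and 0 on day 10 and 1 on day 14 with total counts. In TPM 0 members were below on days 5, 10 and 14. Over 4-fold, 2, 2 and 1 members were above on days 5, 10 and 14, and 0 were below on any day. In TPM the step from day 2 to day 5 had 0 members below, and that from day 5 to day 10 had 3 above and 0 below. Of the 45 other imprinted genes, 2, 13, 23 and 19 were over 2-fold above day 0 in TPM on days 2, 5, 10 and 14. Below were 1, 4 and 5 on days 5, 10 and 14. Of all genes tested in TPM, 7.9, 32, 52.9 and 41.6% were above on days 2, 5, 10 and 14. On days 5, 10 and 14, 3.98, 6.77 and 6.97% were below. For DESeq2 size factors, pairwise TMM, total counts and the subtracted medians no share was taken over all genes, so nothing is read from those counts.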

Other observations

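Genes that keep imprints through cell division were read from a fixed list of 12, of which 10 had 10 or more counts. Zfp445, a zinc finger protein that binds imprinting control regions, had normalized counts of 0.99, 0, 7.0, 101 and 20.6 from day 0 to day 14, and like Peg3 it was highest on day 10. Ctcf, the insulator protein that binds between H19 and Igf2, had 103, 63.3, 155, 225 and 165, and its log2 change was 0.68 on day 14 (0.33 to 1.04). Arid4a was at 1.36 on day 14. Lowest on day 14 were Uhrf1, the partner of the maintenance methyltransferase, at -1.34 (-1.90 to -0.85), Zfp57 at -1.18 (-1.58 to -0.81) and Trim28, the corepressor that Zfp57 recruits, at -0.53 (-0.65 to -0.41). Dnmt1, named after its values were seen, was at 0.62 (0.35 to 0.91), and Ctcfl and Dppa3 were at 0 in every library. On day 14, 2 of the 10 genes (Zfp445 and Arid4a) were over 2-fold above day 0 and 2 (Zfp57 and Uhrf1) below. Of all genes tested, 24.5% were above and 19.9% below. In TPM 5 of the 10 were above and 0 below, with the lowest at -0.39, beside 41.6% and 6.97% of all genes.

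The genes closest in course to Mest by the measure used for H19 were Islr at 0.19, Dcn at 0.21, Sfrp4 at 0.26, Col18a1 at 0.27 and Cela1 at 0.29, and Dcn is itself on the list of imprinted genes. Those closest to Grb10 were Mbnl1 at 0.11, Pdlim5 at 0.14 and Jam2 at 0.18. Both sets were looked at after the values of H19 had been seen.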
